A study of Mus musculus with 6 samples.

Results

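The 7 genes described here handle zinc, and they were taken from the 15168 genes in the deposited counts by exact match of the gene symbol. They are the metallothioneins Mt1 and Mt2, the zinc-sensing transcription factor Mtf1, the zinc exporter Slc30a1 and the zinc importers Slc39a1, Slc39a8 and Slc39a14. All 7 were present in the counts, and all 7 were among the 11878 genes that passed the filter on low counts. They were measured by bulk RNA-sequencing of CD45+CD11b+F4/80+CD64+ macrophages sorted from full-thickness wounds on the back of female C57BL6/J wild-type mice at Day 3. Macrophages from 3 samples of young mice, aged 12 weeks, were compared with those from 3 samples of aged mice, aged 24 months, each set lettered A to C. The comparison asks how the zinc-handling transcripts of wound macrophages differ with age. Neither the labels nor the methods say how many mice gave each sample, and a p-value here measures the spread between samples. The sort had no step that removed Ly6G+ neutrophils.

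Metallothioneins are small cysteine-rich proteins that bind zinc and copper and release them again. Free zinc in the cell activates MTF1, which binds metal response elements in the promoters of the metallothionein genes and of Slc30a1, so that a cell rich in zinc stores and exports more of it. Transporters of the ZnT family (Slc30) move zinc out of the cytosol, across the cell membrane or into organelles, and those of the ZIP family (Slc39) bring it in. In macrophages these proteins set how much zinc, iron and manganese is kept from microbes, and inflammatory cytokines act on several of their genes.

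The promoters of Mt1, Mt2 and Slc30a1 are shown because these are the genes named above as targets of MTF1, and each window holds matches to the core of the metal response element. Each sequence is from RefSeq on GRCm38.p6 (mm10), runs from 250 bases before to 50 bases after the annotated start of transcription, and has matches to the core of the element in capitals. The core was searched as TGCACNC and TGCGCNC on both strands, so that a match on the other strand reads as its reverse complement. The windows of Mt1 and Mt2 lie at chr8:94178839-94179138 and chr8:94172368-94172667 and that of Slc30a1 at chr1:191906531-191906830, all on the plus strand.
Mt1: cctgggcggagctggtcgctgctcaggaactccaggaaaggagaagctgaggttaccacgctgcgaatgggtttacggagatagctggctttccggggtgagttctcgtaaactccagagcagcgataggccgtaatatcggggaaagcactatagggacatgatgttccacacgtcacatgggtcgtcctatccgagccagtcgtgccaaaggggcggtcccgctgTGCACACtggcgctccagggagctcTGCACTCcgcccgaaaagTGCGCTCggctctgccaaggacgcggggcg
Mt2: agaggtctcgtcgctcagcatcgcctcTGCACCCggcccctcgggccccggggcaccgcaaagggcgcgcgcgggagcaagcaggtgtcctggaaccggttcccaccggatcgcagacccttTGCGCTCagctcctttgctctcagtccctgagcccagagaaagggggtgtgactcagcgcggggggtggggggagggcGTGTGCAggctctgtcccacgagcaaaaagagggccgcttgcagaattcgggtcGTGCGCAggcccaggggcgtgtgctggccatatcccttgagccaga
Slc30a1: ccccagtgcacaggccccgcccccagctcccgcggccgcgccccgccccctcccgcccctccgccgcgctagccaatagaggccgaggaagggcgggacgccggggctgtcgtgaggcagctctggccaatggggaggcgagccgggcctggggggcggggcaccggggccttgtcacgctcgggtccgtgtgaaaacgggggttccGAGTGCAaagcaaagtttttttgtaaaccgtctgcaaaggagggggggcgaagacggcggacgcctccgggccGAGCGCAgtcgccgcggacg

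The Mt1 window held 3 matches, the Mt2 window 4 and the Slc30a1 window 2. Counting the annotated RefSeq start as base 1, those of Mt1 began 23 bases before that start and at bases 3 and 21, all on the strand of the gene. Those of Slc30a1 began 43 bases before the start and at base 31, both on the other strand. Slc39a8 has a pair of annotated starts, and only the window of its second start held a match, 19 bases before it. The windows of Mtf1 and Slc39a1 held none. In total, 4 of the 6 genes matched to a promoter had at least 1 match. Of all 32851 windows of 300 bases in the same RefSeq set, 25.7% held at least 1 match, 7.11% at least 2, 1.97% at least 3 and 0.517% at least 4. A match is a string of letters and was not tested for binding. Positions hold only for the annotated starts, and bases outside the windows were not searched, so a gene may have further matches.

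**Figure D1:**
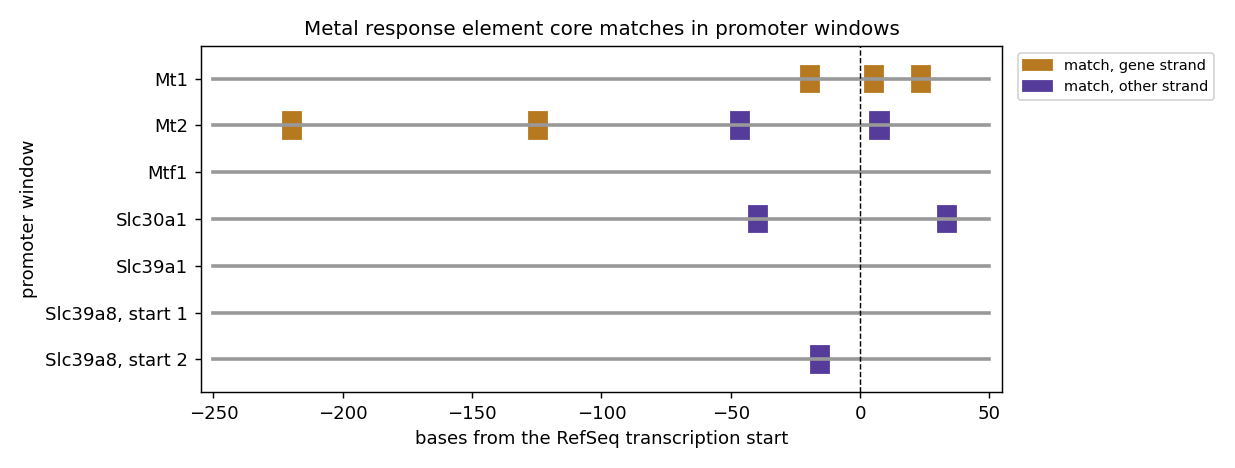
Matches to the core of the metal response element (boxes) along the promoter windows of the 6 genes with an entry, drawn in bases from the RefSeq start of transcription (dashed line). Colour gives the strand of the match. Mt2 has 4 boxes, Mt1 3, Slc30a1 2 and the second start of Slc39a8 1.

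Of the 7 genes, 1 rose and 1 fell with age. Slc39a14, the importer of zinc, iron and manganese (ZIP14), was 3.15-fold higher in aged than in young macrophages, and Slc30a1, the zinc exporter of the cell membrane (ZnT1), was 2.08-fold lower. Mt1, Mt2, Mtf1, Slc39a1 and Slc39a8 did not pass the test. A gene was called when its p in edgeR's quasi-likelihood test, adjusted by the method of Benjamini and Hochberg across the whole table, was under 0.05. By that rule 9.73% of all genes tested were higher and 7.97% lower in aged macrophages. Both called genes also changed more than 2-fold, and 8.79% of all genes tested were both called and over 2-fold, in either direction. The samples of both ages did not overlap in 3 of the 7 genes (Mt2, Slc30a1 and Slc39a14), against 38.2% of all genes tested. The median log2 fold change was -0.17 over the 7 genes and -0.02 over all genes tested. In sorted bulk RNA, fewer cells that express a gene and less RNA per cell cannot be told apart.

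**Figure D2:**
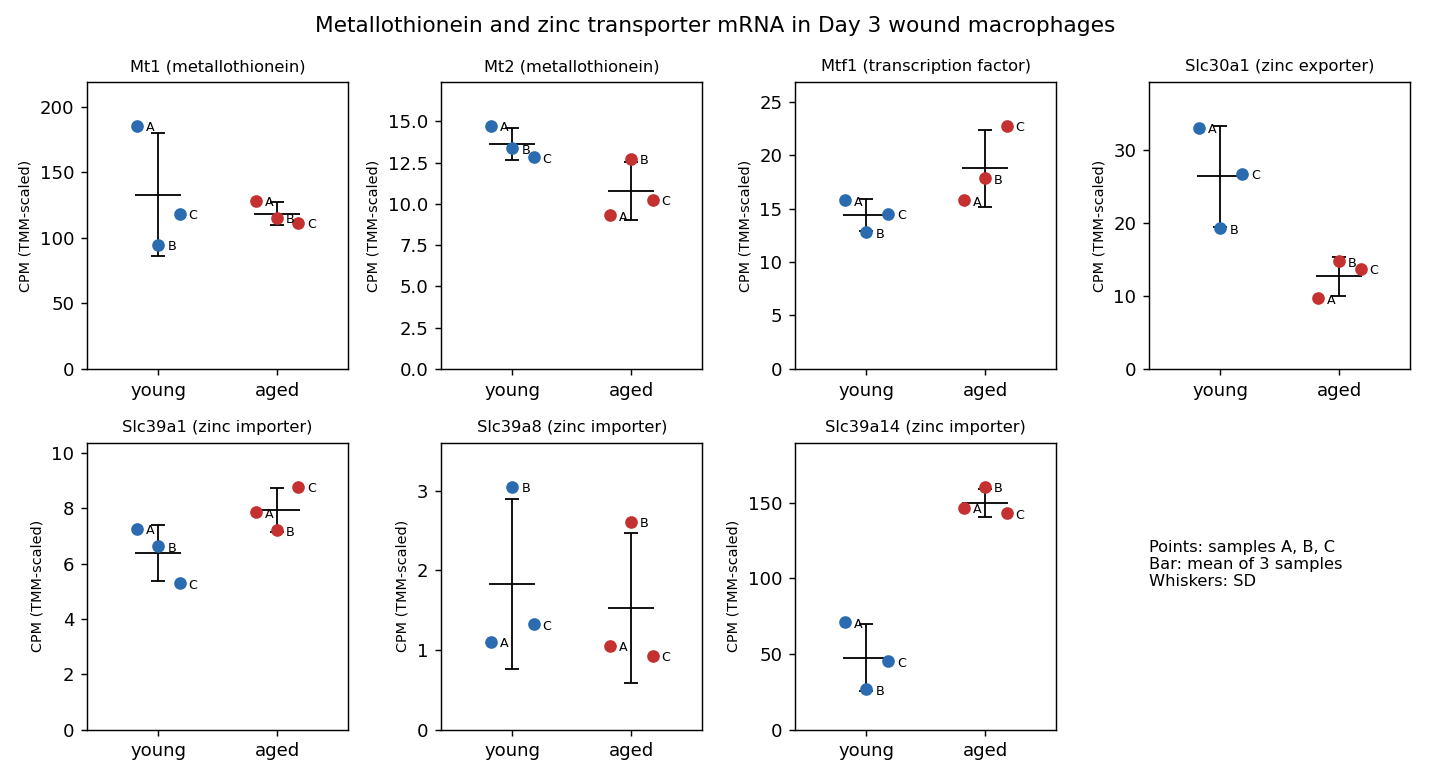
Transcript level of the 7 genes in CPM (counts scaled to library size, each panel on its own axis from 0) in young (blue) and aged (red) wound macrophages, with 1 point per sample, the mean as a bar and the SD as whiskers (n = 3). The aged samples lie above the young in Slc39a14 and below them in Slc30a1 and Mt2, and the ages overlap in the other 4 genes.

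Mt1 (chr8:94179082-94180327, mm10, plus strand), the main metallothionein transcript of these cells, was read from 1615 to 3348 expected counts per sample. As CPM, the count scaled to the size of the library, it stood at 185, 94.7 and 118 in young samples A, B and C and at 128, 115 and 111 in the aged samples. The highest and the lowest sample were both young, and the aged samples lay between them. The young mean was 133 ± 46.9 CPM and the aged mean 118 ± 8.76 CPM (SD, n = 3). On the log2 scale, aged over young was -0.17, with a 95% interval from -0.68 to 0.34 (standard error 0.23, edgeR adjusted p = 0.640). That interval spans both directions, and without young sample A the log2 fold change was 0.15 (edgeR adjusted p = 0.560).

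Mt2 (chr8:94172664-94173568), its upstream neighbour, encodes the other widely expressed metallothionein. It was at 14.7, 13.4 and 12.8 CPM in young samples A, B and C and at 9.32, 12.7 and 10.3 CPM in the aged samples. The aged samples were all below the young, but aged B reached 12.7 against 12.8 CPM in young C. The young mean was 13.6 ± 0.976 CPM and the aged mean 10.8 ± 1.77 CPM (SD, n = 3), with a log2 fold change of -0.34 and an interval from -0.79 to 0.11. This difference did not pass the test (standard error 0.20, edgeR adjusted p = 0.262). Mt1 and Mt2 are paralogs of similar sequence, and how the authors' counting shared reads between them is not given in the sources used here. The Mt2 to Mt1 ratio of CPM was 0.0795, 0.141 and 0.108 in the young samples and 0.0728, 0.110 and 0.0921 in the aged samples. The ratios of both ages overlapped, and their means of 0.110 ± 0.0309 and 0.0918 ± 0.0189 (SD, n = 3) gave p = 0.5 in an exact two-sided permutation test (where 3 against 3 samples cannot go below 0.1). Of the other metallothioneins, Mt3 had between 0 and 5 counts per sample and did not enter the test.

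Mtf1 (chr4:124802104-124849800) encodes the factor that senses zinc. It was at 15.8, 12.8 and 14.5 CPM in the young samples and at 15.8, 17.8 and 22.7 CPM in the aged samples. Aged B and C were above every young sample, while aged A and young A were level. The means of 14.4 ± 1.49 and 18.8 ± 3.58 CPM (SD, n = 3) gave a log2 fold change of 0.39, with an interval from -0.06 to 0.83 (standard error 0.20, edgeR adjusted p = 0.201). The change in Mtf1 mRNA did not pass the test, and the activity of the protein was not measured.

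Slc30a1 (ZnT1, chr1:191906767-191913247) carries zinc out of the cell. It was at 33.1, 19.3 and 26.8 CPM in young samples A, B and C and at 9.67, 14.8 and 13.7 CPM in the aged samples. Every aged sample lay below every young sample, and the nearest pair was young B and aged B. The means fell from 26.4 ± 6.92 to 12.7 ± 2.69 CPM (SD, n = 3). The log2 fold change was -1.05, with an interval from -1.59 to -0.51 (standard error 0.24, edgeR adjusted p = 0.0200), and it was the 801st smallest p-value of the 11878 genes. Without young sample C the log2 fold change was -1.04 and without aged sample C it was -1.10, and neither passed the edgeR test (adjusted p = 0.0869 and 0.0621). In the other 4 fits that each left out 1 sample, Slc30a1 remained called.

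Slc39a14 (ZIP14, chr14:70303469-70351425, minus strand) brings zinc, iron and manganese into the cell. It was at 71.1, 26.6 and 45.2 CPM in young samples A, B and C and at 147, 161 and 143 CPM in the aged samples. The lowest aged sample was above the highest young sample, and the young samples were spread more widely than the aged. The means rose from 47.6 ± 22.4 to 150.1 ± 9.27 CPM (SD, n = 3). The log2 fold change was 1.66, with an interval from 1.003 to 2.31 (standard error 0.29, edgeR adjusted p = 0.00847), the 264th smallest p-value of the 11878 genes. Without young sample C it was 1.62 and did not pass the edgeR test (adjusted p = 0.0586), and in the other 5 fits of this kind Slc39a14 remained called.

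Slc39a14 and Slc30a1 moved in opposite directions, so their ratio within a sample, which does not depend on library size, was computed after their values had been seen. The ratio of Slc39a14 to Slc30a1 counts was 2.15, 1.38 and 1.68 in young samples A, B and C. It was 15.2, 10.9 and 10.4 in the aged samples. Since Slc39a14 was higher and Slc30a1 lower in every aged sample than in any young sample, the ratio had to separate the ages. It restates both calls and is no further result. No test was made on this ratio because both genes had already been called. In the young samples Slc30a1, Slc39a14, Mt1 and Mtf1 shared one order, with A highest and B lowest. Young A also differed most from the others over all genes, with a chi-square per gene between counts of 115 and 120 against young B and C and of 31.9 between B and C. Among the aged samples, A stood likewise, at 121 and 95.3 against B and C and 45.7 between those.

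Slc39a1 (ZIP1, chr3:90248172-90253612), an importer of the cell membrane, was at 7.25, 6.63 and 5.28 CPM in the young and 7.85, 7.20 and 8.77 CPM in the aged samples. The ages met at young A and aged B, which differed by less than the spread within either age. The means were 6.39 ± 1.003 and 7.94 ± 0.791 CPM (SD, n = 3), and the log2 fold change of 0.31, with an interval from -0.20 to 0.83, did not pass the test (standard error 0.23, edgeR adjusted p = 0.370). Reads of Slc39a1 could be shared with its processed pseudogene Slc39a1-ps, which was listed at 1.06 to 7.49 counts per sample.

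Slc39a8 (ZIP8, chr3:135825279-135888572), the closest relative of ZIP14 and a carrier of the same metals, was scarce, with 15 to 52 counts per sample. It was at 1.11, 3.05 and 1.32 CPM in the young and 1.05, 2.61 and 0.926 CPM in the aged samples. Sample B was the highest in both ages, and the other 4 samples lay close together. The log2 fold change was -0.25 with an interval from -1.46 to 0.96 (standard error 0.55, edgeR adjusted p = 0.775), which is too wide to show a difference of the size seen in Slc30a1. Its sign turned without young sample B, to 0.34, and without aged sample C, to 0.01.

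Levels of different genes were compared per kilobase of transcript, as CPM divided by the length of the longest principal transcript. In young macrophages Mt1 was the highest, at 242 ± 85.4 CPM per kilobase, followed by Mt2 at 26.7 ± 1.91 and Slc39a14 at 9.67 ± 4.54 (SD, n = 3). Then came Slc30a1 at 5.04 ± 1.32, Slc39a1 at 2.702 ± 0.424, Mtf1 at 1.88 ± 0.196 and Slc39a8 at 0.517 ± 0.302 CPM per kilobase. Among neighbours in this order, Slc39a14 and Slc30a1 overlapped between samples (lowest 5.40 and highest 6.32 CPM per kilobase), and the others did not.

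In aged macrophages Slc39a14, at 30.5 ± 1.88 CPM per kilobase, stood above Mt2 at 21.1 ± 3.46 without overlap, and below Mt1 at 215 ± 16.0. Slc30a1, at 2.43 ± 0.514, was lower per kilobase than Slc39a1, at 3.36 ± 0.335, and level with Mtf1, at 2.46 ± 0.469. The samples of Mtf1 and Slc30a1 overlapped. Slc39a8 was again the lowest, at 0.433 ± 0.266 CPM per kilobase. Among the 11682 tested genes with a length, Mt1 ranked 310th in young and 379th in aged macrophages, Slc39a14 moved from 4135th to 2052nd, and Slc30a1 from 5627th to 7290th.

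Of the other ZnT genes, 5 of the 9 listed were in the counts, and these 5 carry zinc into organelles and vesicles or act in mitochondria. Of these 5 tested, 1 was called higher and 0 lower in aged macrophages, against 9.73% and 7.97% of all genes tested. At an unadjusted p under 0.05 in edgeR, 4 of the 5 were higher. Over all 11878 genes tested in edgeR, 4101 had an unadjusted p under 0.05, in either direction. limma-voom also called Slc30a6 higher, and edgeR without young A also called Slc30a9 higher. Slc30a5 (ZnT5), which loads zinc into the early secretory pathway, was at 29.1, 26.0 and 24.7 CPM in the young and 37.0, 48.7 and 43.4 CPM in the aged samples. The ages did not overlap, and the gene rose by 0.69 on the log2 scale (standard error 0.17, edgeR adjusted p = 0.0240). It was not called in 4 of the 6 fits that each left out 1 sample (without young B, young C, aged B or aged C). Slc30a7 (ZnT7), a Golgi transporter and the most abundant of the 5, had a log2 fold change of 0.38 and did not pass the edgeR test (adjusted p = 0.116). The log2 fold changes of the 5 genes ran from 0.38 to 1.04, with a median of 0.48, against -1.05 for Slc30a1.

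Of the other ZIP genes, 8 of the 11 listed were tested, and 0 were called in either direction by edgeR. Over all genes tested, 9.73% were called higher and 7.97% lower. At an unadjusted p under 0.05, 2 were higher and 1 was lower, against 4101 of all 11878 genes tested in either direction. DESeq2 called Slc39a9 higher, and limma-voom called Slc39a6 and Slc39a9 higher and Slc39a4 lower. In edgeR, Slc39a6 and Slc39a9 were called higher without young A, and Slc39a9 higher and Slc39a4 lower without aged A. The log2 fold changes ran from -1.04 to 0.75, with a median of 0.17. Slc39a7 (ZIP7), which releases zinc from the endoplasmic reticulum and was the most abundant, had a mean of 69.6 ± 6.28 CPM in the young and 88.7 ± 13.4 CPM in the aged samples (SD, n = 3). Its log2 fold change of 0.35 did not pass the edgeR test (adjusted p = 0.171). None of these 8 importers had a log2 fold change as high as that of Slc39a14.

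**Figure D3:**
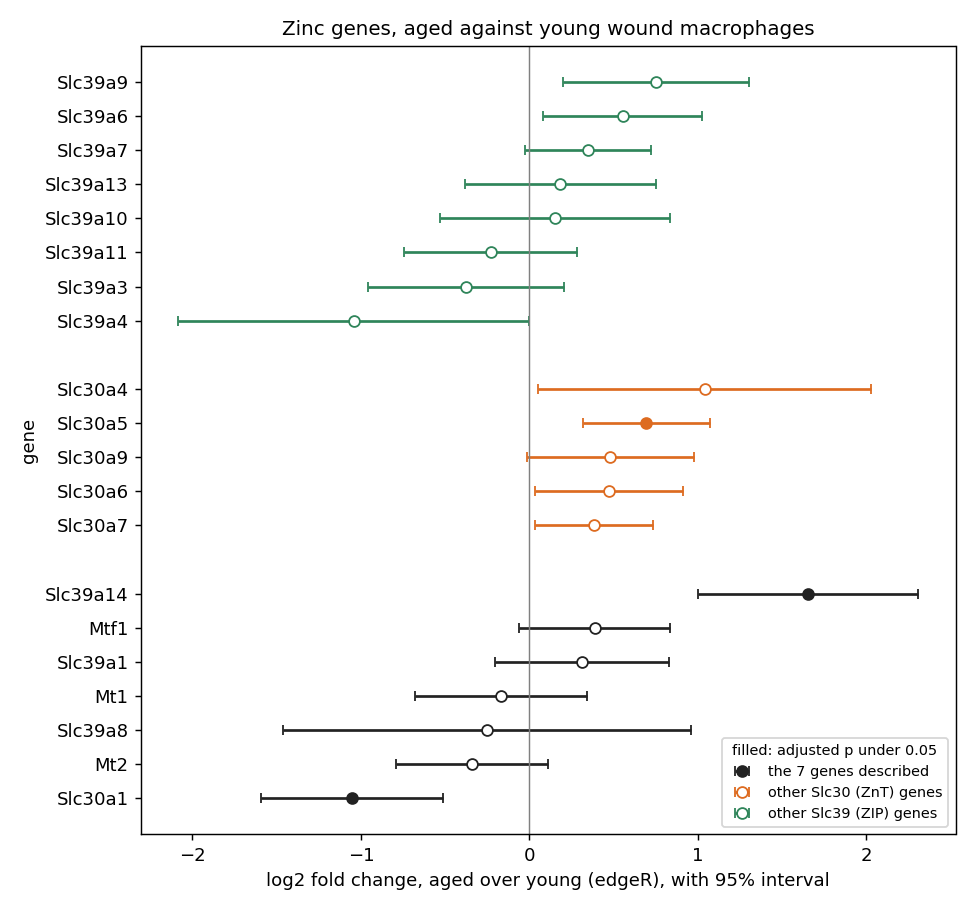
Log2 fold change of aged over young with its 95% interval (edgeR) for the 7 genes (black), the other ZnT genes tested (orange) and the other ZIP genes tested (green). Filled points passed the test (adjusted p under 0.05), which were Slc39a14 and Slc30a5 above 0 and Slc30a1 below 0.

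Other genes reported to carry MTF1 sites did not move in one direction. Of 7 tested, 2 were called higher and 2 lower, against 9.73% and 7.97% of all genes tested. The median log2 fold change of the 7 was 0.58. Slc40a1, the iron exporter ferroportin, rose by 0.93 on the log2 scale (standard error 0.25, edgeR adjusted p = 0.0319). Ndrg1, a gene of metal and hypoxia responses, was at 189, 180 and 159 CPM in the young and 415, 212 and 356 CPM in the aged samples. Each aged sample was above the young, and it rose by 0.90 on the log2 scale (standard error 0.24, edgeR adjusted p = 0.0296). Selenow, which encodes a small selenoprotein, fell by 0.77 on the log2 scale, and Csrp1, which encodes a zinc-binding LIM protein, fell by 0.73 (standard errors 0.17 and 0.22, edgeR adjusted p = 0.0185 and 0.0437). Of the targets among the 7 genes, Slc30a1 was called lower, and Mt1 and Mt2 were not called. In the promoter windows, Selenow had 2 matches to the core of the element, which overlap on opposite strands (at bases 6 and 7). Csrp1 had 3 at one of its annotated starts and 0 at the other, and Cebpa and Pgf had 0.

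Slc39a14 also carries manganese and iron, and 3 of the 4 tested genes of the other manganese and iron transporters were called higher in aged macrophages and 0 lower. Over all genes tested, 9.73% were called higher and 7.97% lower. Slc40a1, counted here, is also in the list of genes with MTF1 sites. Slc11a1 (NRAMP1), which pumps these metals out of the phagosome, rose by a log2 fold change of 0.79 from 407 ± 37.0 to 704 ± 98.3 CPM (SD, n = 3, edgeR adjusted p = 0.0173). Slc11a2 (DMT1), the iron importer of the cell membrane and endosome, rose by 1.04 (edgeR adjusted p = 0.0393), and Slc40a1 by the value given above. Tfrc, the transferrin receptor, had a log2 fold change of -0.38 and did not pass the edgeR test (adjusted p = 0.311).

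Metallothioneins also bind copper, and of the 10 copper-handling genes tested 3 were called higher and 2 lower, with a median log2 fold change of 0.02. Over all genes tested the shares were 9.73% higher and 7.97% lower. Slc31a2 (CTR2), a copper transporter of endosomes and lysosomes, was at 96.7, 98.9 and 114 CPM in the young and 251, 204 and 216 CPM in the aged samples. The young samples all lay below the aged, and the gene rose by 1.12 on the log2 scale (standard error 0.16, edgeR adjusted p = 0.00429). Steap4, a metalloreductase of iron and copper, rose by 1.24, while its relative Steap3 fell by 1.25 on the log2 scale (edgeR adjusted p = 0.0106 and 0.0160). Atp7a, the copper pump, rose by 0.68 (edgeR adjusted p = 0.0353).

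The genes that signal to Mt1, Mt2, Slc39a14 and Slc39a8 in other settings include those of cytokine and glucocorticoid responses. All 9 genes listed as cytokine inputs were called higher in aged macrophages (median log2 fold change 1.08), against 9.73% of all genes tested. This list was written with earlier results of these data known, and the paper reports Il1b, Il6 and Nfkb1 as raised in these same samples. The count of 9 is therefore no independent result. Whether these genes act on Slc39a14 in these cells was not tested. Il6, whose product raises Slc39a14 in liver cells, was at 6.31, 16.8 and 14.3 CPM in the young and 19.9, 49.9 and 46.0 CPM in the aged samples. The ages did not overlap, and Il6 rose by 1.64 on the log2 scale (standard error 0.39, edgeR adjusted p = 0.0221). Socs3, a target of that pathway, rose by 1.73, Nfkb1 by 1.41 and Il6st, the shared receptor chain, by 1.31 (edgeR adjusted p = 0.00898, 0.00242 and 0.00878). Il1b, the most abundant of the 9, rose by 1.08 (edgeR adjusted p = 0.0328).

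Of 8 genes tested from the glucocorticoid list, 2 were called higher and 0 lower, against 9.73% and 7.97% of all genes tested. Nr3c1, the glucocorticoid receptor, rose by a log2 fold change of 0.72 and Cebpd, a transcription factor of acute responses, by 0.71 (edgeR adjusted p = 0.0142 and 0.0208). Dusp1, the most abundant of the list, had a log2 fold change of 0.23 and did not pass the edgeR test (adjusted p = 0.559).

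Profiles over the 6 samples were compared for 6588 genes with a mean of at least 10 CPM, by the root mean square difference of log2 CPM after each gene was centred on its own mean. The genes nearest to Mt1 were Larp1b, Mphosph6, Cnot9, G6pc3 and Srsf6, at differences of 0.0952 to 0.119. Mt2 was not among them, since it stood 1300th in likeness to Mt1, at a difference of 0.318. The genes nearest to Mt2 were Nfx1, Gm11560, Armc1, Thap11 and Pls3, at 0.0811 to 0.0923. The genes nearest to Slc39a14 were Jag1, Rhbdf2, Itga5, Slc38a2 and Stk40, at 0.135 to 0.176. These are descriptions over 6 samples that share the same libraries.

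Totals ran from 15270103 to 17927483 expected counts per sample, and after TMM scaling (factors of 0.904 to 1.11) 1 count was worth 0.0553 to 0.0701 CPM. All 4 genes of the sort (Ptprc, Itgam, Fcgr1 and Adgre1) and all 5 macrophage markers listed were present in every sample. Of these, Itgam and Cd14 rose by a log2 fold change of 0.99 and 1.10 and Adgre1 fell by 0.69 on the log2 scale (edgeR adjusted p = 0.00735, 0.0110 and 0.0292). Of the other 4 macrophage markers, Lyz2, the most abundant, had a log2 fold change of -0.68 and Cd68 of -0.41, with all aged samples below the young in both. Neither passed the edgeR test (adjusted p = 0.0753 and 0.121), and both had an unadjusted p under 0.05.

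Markers of other cells were read beside the called genes. The 12 neutrophil markers in the counts, of 13 listed, summed to 717, 1217 and 1170 CPM in the young and 1582, 926 and 1558 CPM in the aged samples. Of these 12, 4 were called higher (Cd177, Cxcr2, Lcn2 and Retnlg) and 0 lower, against 9.73% and 7.97% of all genes tested. Ly6g itself had a log2 fold change of 0.05 (edgeR adjusted p = 0.923). S100a9, the most abundant, had a log2 fold change of 0.20 and did not pass the edgeR test (adjusted p = 0.700).

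The 9 keratinocyte markers in the counts, of 10 listed, summed to 0.925 to 1.17 CPM in the young samples and to 3.08, 194 and 2.04 CPM in aged A, B and C. Krt14 made up 80.2 CPM of the sum in aged B, and Krt1 was at 0 in all young samples and aged A. Krt14, the only keratinocyte marker tested, was called higher (log2 fold change 8.29, edgeR adjusted p = 0.0259), with 0.771 and 0.865 CPM in aged A and C. Without aged B, the log2 fold changes were 1.62 for Slc39a14 and -1.16 for Slc30a1 (edgeR adjusted p = 0.0130 and 0.0262). The fibroblast markers (8 of 8 listed) summed to 310 to 375 CPM in the young and 576 to 816 CPM in the aged samples, and most of this was Fn1, which macrophages also make. Fn1 was called higher, with a log2 fold change of 0.96 (edgeR adjusted p = 0.00878), and the other 5 fibroblast markers tested were not called. Some of the other fibroblast markers stood apart in aged B, with Col3a1 at 48.3 CPM against 2.94 and 6.42 CPM in aged A and C and 8.21 to 14.3 CPM in the young samples. Col1a1 was likewise at 15.6 CPM in aged B against 1.12 to 4.01 CPM in the other 5 samples, while Lum (7.13 CPM in aged B and 5.62 in aged C) and Pdgfrb (0.764 CPM in aged B and 0.771 in aged A) did not set aged B apart.

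The 4 mast cell markers summed to 94.0, 45.7 and 25.2 CPM in young A, B and C and to 61.8, 0.255 and 0.0618 CPM in aged A, B and C, with Cpa3, Mcpt4 and Cma1 at 0 in aged B and C. Young A was highest for this sum and also for Mt1, Mt2 and Slc30a1. Among the young samples Mt2 had the same order as this sum, while young B had the lowest Slc30a1 of the young and the lowest Mt1 of all samples, at 94.7 CPM. Among the aged samples, A had the highest Mt1, at 128 CPM, and the lowest Mt2 and Slc30a1, at 9.32 and 9.67 CPM. The 5 endothelial markers summed to 11.7 to 12.6 CPM in the young and 25.9 to 31.1 CPM in the aged samples, and Pecam1, which myeloid cells also express, was the 1 called higher. The T and NK cell markers summed to 1.78 to 3.43 CPM over all 6 samples, and Nkg7, the most abundant, did not pass the edgeR test (log2 fold change -1.80, adjusted p = 0.0586). The B cell markers summed to 4.62 to 12.9 CPM in the young and 2.61 to 4.08 CPM in the aged samples, and Cd79b fell by 1.58 on the log2 scale (edgeR adjusted p = 0.0308). The sort required CD45, which fibroblasts, keratinocytes and endothelial cells lack. The part of other cells in the zinc genes was not tested.

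**Figure D4:**
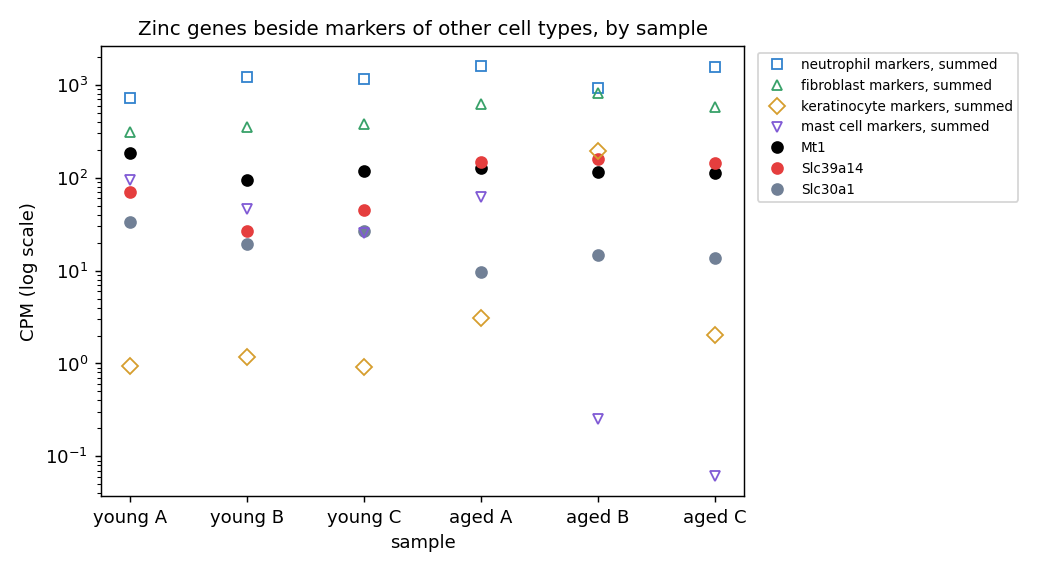
Level in CPM (log axis) of Mt1, Slc39a14 and Slc30a1 (filled points) and the summed level of neutrophil, fibroblast, keratinocyte and mast cell markers (open symbols) in each of the 6 samples. The keratinocyte sum stands apart in aged B, at 194 CPM, and the mast cell sum is under 1 CPM in aged B and aged C, while Slc39a14 is between 143 and 161 CPM in all 3 aged samples.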

How the data were processed

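The authors aligned reads from SMART-Seq v4 libraries, whose kit does not mark the strand, with STAR 2.7.3a to mm10 and quantified Ensembl transcripts (release 102) in Partek Flow, and they deposited expected counts per gene, not normalised. Near-identical genes can share reads. The labels name no molecular identifiers. Their second deposited table, of a DESeq2 comparison (scaled signal, p-values and fold changes), was not used here.

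Expected counts were rounded and tested in R 4.3.3 with edgeR 4.0.16 (TMM scaling, filterByExpr, quasi-likelihood test of aged against young, Benjamini-Hochberg adjustment over 11878 genes, threshold 0.05). CPM was taken over TMM-scaled libraries, with a prior count of 2 before log2. Alternatives were DESeq2 1.42.0, limma-voom (limma 3.58.1) with quality weights, other scaling and filters, leaving out each sample, and a block for the set letter. Scripts were tested on simulated data. Transcript lengths were from GENCODE and matched to 98.3% of tested genes, and promoters were from RefSeq. Gene positions are in the authors' mm10 annotation. Plots were drawn in matplotlib 3.10.9 (Python 3.11.15, pandas 2.3.3).

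The 7 genes and the gene lists, written from general knowledge, were chosen with earlier results of these data known. Besides the 7, the text names the called genes of each list (at most 4, by size of change), its most abundant gene, and the 5 nearest profiles to Mt1, Mt2 and Slc39a14. Tfrc, Ly6g, Cebpa, Pgf, Slc30a6, Slc30a9, Cd68, Col1a1, Col3a1, Lum, Pdgfrb, Ptprc, Fcgr1, Slc39a4, Slc39a6, Slc39a9, Slc39a1-ps, Krt1, Mcpt4 and Cma1 were named after their values were seen.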

Additional observations from a re-analysis of the deposited data

How the results depend on the processing

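Under the 6 other tools, scalings, filters and designs, Slc30a1 remained called, with log2 fold changes of -1.06 to -0.99, as did Slc39a14, at 1.64 to 1.76, and the other 5 genes were not called. Leaving out 1 sample at a time gave -1.23 to -0.85 for Slc30a1, 1.37 to 2.07 for Slc39a14, -0.36 to 0.15 for Mt1 and -0.87 to 0.34 for Slc39a8. The number of the 7 genes called then ran from 0 (without young C) to 2, against 2 with all samples. That of the 13 other ZnT and ZIP genes tested ran from 0 to 4, against 1, and that of all genes from 218 (without young C) to 2702 (without young A), against 2103. DESeq2 called 2 of the 13 other transporters and limma-voom with quality weights 5, and limma-voom called 3646 genes in all. Of all genes, 1044 were called at over 2-fold, 306 at an adjusted p under 0.01 and 3364 under 0.1, and at 0.01 the 7 genes gave 1 call, Slc39a14.

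The labels and methods do not say whether the set letters pair the samples. Deviations of same-lettered samples from their group means correlated across genes at 0.18 for A, -0.02 for B and 0.11 for C, and both A samples matched each other best, which did not hold for B and C. With the set letter as a replicate block, 2 of the 7 genes and 2114 of all genes were called, 1838 of them shared with the fit without the block. Depth limits Slc39a8 most, at 15 to 52 counts per sample.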
